A study of Mus musculus with 3 samples.

Results

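T and NK cells that came through a sort meant to remove blood cells were examined in 3 single-cell RNA libraries of mouse bone marrow, 1 library per group. A called barcode had at least 1000 UMIs (unique molecular identifiers, each counting 1 captured RNA molecule), at least 500 genes and under 10% mitochondrial UMIs. It was taken as a T or NK cell when Cd3e, Cd3d, Cd3g, Klrd1 and Ncr1 summed to at least 3 UMIs, Nkg7, Ccl5 and Lck summed to at least 2 UMIs, and Cd79a and Cdh5 were at 0. This chose 155 of 16318 called barcodes: 70 of 5568 in aGVHD, 24 of 3621 in BMT and 61 of 7129 in WT. These genes chose the cells, so their levels are given as a description.

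The aGVHD library (acute graft-versus-host disease) came from female CB6F1 mice irradiated 2 times with 4.0 Gy, then injected 4 hours later with nucleated marrow cells of B6.SJL donors together with spleen cells of female C57BL/6 donors. The BMT library (bone marrow transplantation) came from recipients treated in the same way but given the marrow cells without spleen cells. The WT library came from female CB6F1 mice with no treatment. The recipients carry CD45.2 and the B6.SJL marrow donors CD45.1. In all 3 groups live marrow cells were sorted after depletion of cells stained for CD45, a lineage mix or CD71. How many mice each library pooled, the marrow donors' sex and the day of collection are not stated in the labels. Each group is a single library, so replicate error is unknown and no test was possible. Every interval below is a 95% interval and covers counting error only.

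T cells recognise antigen through a receptor that signals through the CD3 chains. CD8 T cells kill target cells with granzymes and perforin, CD4 T cells act mainly through cytokines and costimulatory ligands, and NK cells kill without an antigen receptor. In acute graft-versus-host disease, mature donor T cells attack tissues of the recipient, and the bone marrow is one of the tissues affected. T cells carry CD45, the protein encoded by Ptprc, so the sort should have removed them.

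Ptprc was nonetheless detected in nearly every one of these cells: 68 of 70 in aGVHD, 24 of 24 in BMT and 60 of 61 in WT. Endothelial barcodes of the same libraries (called, with at least 3 UMIs of Cdh5) held a Ptprc UMI in 2.81% in aGVHD, 3.4% in BMT and 1.60% in WT, at median depths of 3662 UMIs in aGVHD, 5341 in BMT and 5073 in WT. The T and NK cells had median depths of 5428.5 UMIs in aGVHD, 6767.5 in BMT and 5924 in WT. Library totals ran from 44219063 to 86575425 UMIs, and no barcode was a member in more than 1 library.

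The cells made up 1.26% of called barcodes in aGVHD (0.981 to 1.59%), 0.663% in BMT (0.425 to 0.985%) and 0.856% in WT (0.655 to 1.10%). The ratio of shares was 1.90 for aGVHD over BMT (1.2 to 3.01), 0.775 for BMT over WT (0.484 to 1.24) and 1.47 for aGVHD over WT (1.04 to 2.07). The intervals of aGVHD over BMT and of aGVHD over WT lay above 1, and that of BMT over WT included 1. These are shares of what the sort let through, not of the marrow. At the edge of the rule, 2 members in aGVHD, 0 in BMT and 3 in WT had exactly 3 UMIs of the first gene group, and 4 barcodes in aGVHD, 1 in BMT and 0 in WT with 2 such UMIs met every other condition.

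Some of these barcodes also held RNA of another cell class. A barcode was called mixed with at least 10 UMIs of the stromal list, 100 of the erythroid list, 50 of the neutrophil list or 10 of the endothelial list without Fabp4; these limits were chosen after the values were seen. There were 11 mixed barcodes in aGVHD, 3 in BMT and 9 in WT, and they held 38.6% of the members' UMIs in aGVHD, 35.8% in BMT and 33.5% in WT. Of them, 6 in aGVHD, 3 in BMT and 8 in WT were mixed by the stromal list, and 4 in aGVHD, 0 in BMT and 1 in WT by the erythroid list. Stromal UMIs left a gap: each barcode mixed by that list had at least 18, and no unmixed member had more than 5. The counts of genes and lists below are given for all members, as the rule sets them, and then for the members left without mixed barcodes, 59 in aGVHD, 21 in BMT and 52 in WT. Without them the ratio of shares was 1.83 for aGVHD over BMT (1.11 to 3.0), 0.795 for BMT over WT (0.480 to 1.32) and 1.45 for aGVHD over WT (1.0 to 2.11).

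**Figure D1:**
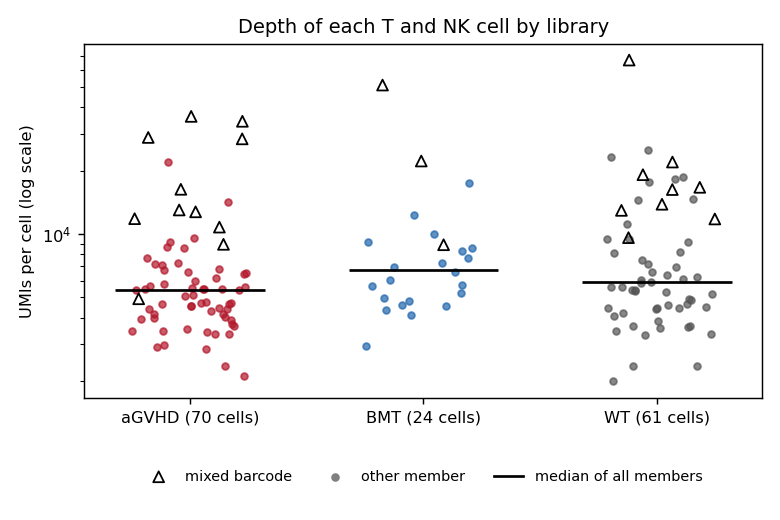
UMIs per cell (log axis) of every T and NK cell by library; triangles are mixed barcodes, dots the other members and lines the medians over all members. The mixed barcodes had median depths of 12994 UMIs in aGVHD, 22207 in BMT and 16250 in WT and include the deepest cell of each library.

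The label names T and NK cells, and few cells met an NK gate. The gates share CD3 genes and Ncr1 with the rule that chose the cells, so their counts describe the members and test nothing. A T gate (at least 2 CD3 UMIs and none of Ncr1 or Klrb1c) took 67 of 70 cells in aGVHD, 24 of 24 in BMT and 56 of 61 in WT. An NK gate (no CD3 UMI and at least 1 of Ncr1, Klrb1c or Klre1) took 0 cells in aGVHD, which allows a share of up to 4.29%, 0 in BMT, which allows up to 12.5%, and 3 in WT. The other 3 cells in aGVHD and 2 in WT were unresolved. The median number of CD3 UMIs per cell was 11 in aGVHD, 16 in BMT and 13 in WT. Nkg7, a granule protein of cytotoxic cells, stood at 1322 CPM (UMIs summed over the cells and scaled to a common total) in aGVHD, 1452 in BMT and 1488 in WT. Ccl5, a chemokine made by memory and effector T cells, reached 12204 CPM in aGVHD, 11223 in BMT and 10889 in WT, while empty droplets held 171 CPM in aGVHD, 208 in BMT and 116 in WT. Both genes are part of the rule that chose the cells, so their levels describe the members and are not compared between libraries.

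Most T-gated cells carried a CD8 transcript. The CD8 gate (Cd8a or Cd8b1 without Cd4) took 39 of 67 T-gated cells in aGVHD (58.2%, 45.5 to 70.2%), 19 of 24 in BMT (79.2%, 57.8 to 92.9%) and 39 of 56 in WT (69.6%, 55.9 to 81.2%). The CD4 gate took 17 in aGVHD, 3 in BMT and 10 in WT. Neither coreceptor was seen in 10 cells in aGVHD, 2 in BMT and 6 in WT. The CD8 intervals of all 3 libraries overlapped. Thinned to 1000 UMIs per cell, the CD8 share of T-gated cells was 30.6% in aGVHD, 41.2% in BMT and 42.4% in WT, so these shares depend on depth. Cd4 itself had 41 UMIs in aGVHD, 3 in BMT and 21 in WT.

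Transcripts that mark the sex of a cell separated the BMT cells from the others. Xist, the RNA that silences an X chromosome in female cells (GRCm38 chromosome X, 103460366 to 103483254), had at least 1 UMI in 63 of 70 members in aGVHD, 3 of 24 in BMT and 60 of 61 in WT. The Y-linked genes Ddx3y, Eif2s3y, Kdm5d and Uty had at least 1 UMI in 5 of 70 members in aGVHD, 22 of 24 in BMT and 0 of 61 in WT, which allows up to 4.92% of cells with such a UMI. Without mixed barcodes, Xist was seen in 53 of 59 cells in aGVHD, 0 of 21 in BMT and 51 of 52 in WT, and a Y-linked UMI in 2 of 59 cells in aGVHD, 19 of 21 in BMT and 0 of 52 in WT. No cell outside the mixed barcodes held both kinds of transcript in any library, whereas the 3 mixed BMT cells all did. Endothelial barcodes held Xist in 86.6% in aGVHD, 92.0% in BMT and 93.6% in WT, and Y-linked UMIs in 2.41% in aGVHD, 2.04% in BMT and 0 of 375 in WT. Neutrophil-type barcodes (neutrophil list at least 10% of UMIs, a limit set after the values were seen) held Y-linked UMIs in 50.2% in aGVHD, 67.4% in BMT and 0 of 92 in WT. The BMT T cells thus held Y-linked RNA in a library whose endothelial barcodes held Xist. The recipients were female, and BMT mice were given B6.SJL marrow cells alone, while WT cells are those of untreated CB6F1 mice. In every comparison with BMT below, the sex of most T cells differs together with the group. Against WT their donor and strain differ too, and against aGVHD they may differ. None of these can be told apart from the group.

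**Figure D2:**
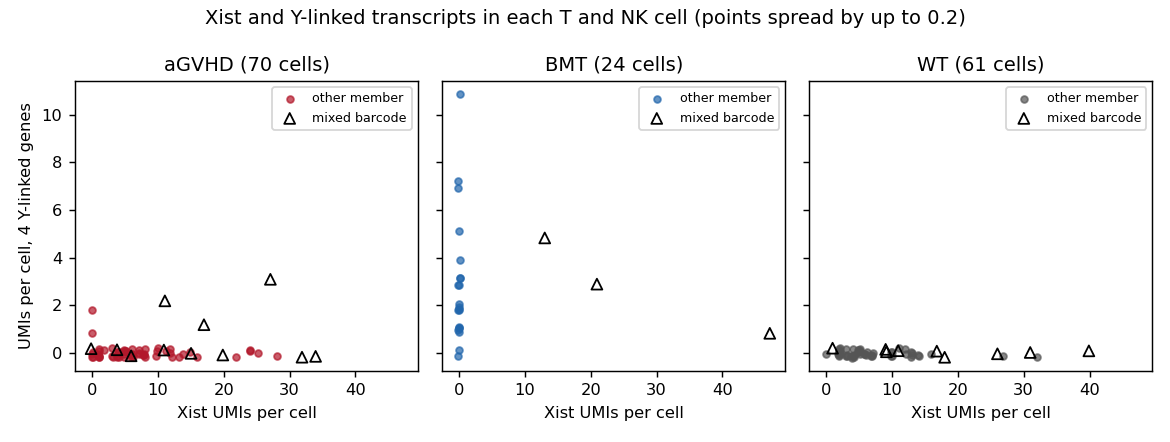
Xist UMIs (x axis) against summed UMIs of 4 Y-linked genes (y axis) in each T and NK cell, 1 panel per library; triangles are mixed barcodes. At least 1 Xist UMI is seen in 53 of 59 unmixed aGVHD cells, 0 of 21 unmixed BMT cells and 51 of 52 unmixed WT cells.

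The comparison of aGVHD with BMT sets T cells of mice given spleen cells with the marrow against those of mice given marrow alone. Most of these T cells differ in sex, and they may differ in donor and strain. The aGVHD cells had more RNA of Il7r, Tnfsf8, Ifng and Gzmb, and the BMT cells more of Ikzf2. A gene passed the size rule with at least 30 UMIs over both libraries, a ratio of at least 2 either way, an interval excluding 1, and a CPM on the higher side at least 2 times that of empty droplets. Of 3533 genes with 30 UMIs, 67 passed as higher (1.90%) and 165 as lower (4.67%) in aGVHD. Without mixed barcodes 74 of 2208 passed as higher (3.35%) and 128 as lower (5.80%), and 44 and 83 genes passed both ways of counting. A single cell held at least 50% of the higher library's UMIs for 9 of the 67 and 17 of the 165. Malat1, a nuclear RNA often read as a sign of RNA quality, had 14325 CPM in aGVHD cells against 30544 CPM in BMT cells, a ratio of 0.469 (0.454 to 0.485), and its part in these differences was not tested. Summed counts from a library cannot separate more RNA per cell from more cells with the RNA. The number of cells is therefore given for Il7r, Tnfsf8, Ifng, Gzmb, Ikzf2 and some other genes. For genes without it the 2 cannot be told apart.

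Il7r, the receptor chain for the survival cytokine IL-7 (chromosome 15, 9505788 to 9530176), had 86 UMIs in 36 of 70 cells in aGVHD, 1 UMI in 1 of 24 cells in BMT and 28 UMIs in 16 of 61 cells in WT. Its level was 161 CPM in aGVHD and 4.36 CPM in BMT, a ratio of 37.0 (6.46 to 1478). Without mixed barcodes the ratio was 32.9 (5.71 to 1315). The UMIs were spread over many aGVHD cells, with at most 8 in one. The CD4 gate held much of this RNA, and it held 15 unmixed cells in aGVHD against 3 in BMT. In CD8-gated unmixed cells Il7r had 22 UMIs in 9 of 31 cells in aGVHD and 0 UMIs in 16 cells in BMT, at least 4.33-fold higher against a floor of 3 UMIs.

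Tnfsf8, the ligand of CD30 made by activated T cells (chromosome 4, 63831308 to 63861347), had 132 UMIs in 20 cells in aGVHD, 1 UMI in 1 cell in BMT and 84 UMIs in 15 cells in WT. The ratio of aGVHD over BMT was 56.8 (10 to 2259), and 51.3 (9.02 to 2044) without mixed barcodes. In CD8-gated cells it was low in both, with 6 UMIs in aGVHD and 1 in BMT, and the CD4-gated cells of aGVHD held 75 UMIs in 9 of 15 cells against 0 in the 3 CD4-gated cells of BMT. The number of CD4-gated cells differed together with the Tnfsf8 ratio, and their part in it was not tested.

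Ifng, the effector cytokine interferon gamma (chromosome 10, 118441046 to 118445892), had 79 UMIs in 29 cells in aGVHD, 5 UMIs in 3 cells in BMT and 59 UMIs in 25 cells in WT. The ratio of aGVHD over BMT was 6.80 (2.79 to 21.5) and 14.9 (3.95 to 125) without mixed barcodes. Within CD8-gated unmixed cells it was 9.44 (2.41 to 81.3), from 32 UMIs in 14 of 31 cells in aGVHD and 2 UMIs in 2 of 16 cells in BMT. The share of cells with the transcript was alike in aGVHD and WT, at 41.4% and 41.0%, and was 12.5% in BMT.

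Gzmb, the granzyme that triggers death of the target cell (chromosome 14, 56258838 to 56262260), had 267 UMIs in 32 of 70 cells in aGVHD, 53 UMIs in 10 of 24 cells in BMT and 474 UMIs in 32 of 61 cells in WT. The share of cells with the transcript was 45.7% in aGVHD, 41.7% in BMT and 52.5% in WT. Without mixed barcodes it was 49.2% in aGVHD, 33.3% in BMT and 48.1% in WT. The ratio of aGVHD over BMT was 2.17 (1.61 to 2.97) over all members and 9.38 (5.27 to 18.4) without mixed barcodes. Of the 53 BMT UMIs, 12 were in unmixed cells. In CD8-gated unmixed cells the ratio was 10.8 (6.07 to 21.3). Gzma, a second granzyme, had 165 UMIs in 16 of 70 cells in aGVHD and 41 in 5 of 24 cells in BMT, 23 of them in 1 cell. Its ratio was 1.73 (1.22 to 2.50) and did not pass. Without mixed barcodes it was 2.54 (1.69 to 3.94) and passed. In both ways of counting, the summed RNA of both granzymes was higher in aGVHD than in BMT. Of the cytotoxic granule and death ligand list 2 of 9 were higher and 0 lower in aGVHD (median log2 ratio 0.03). Without mixed barcodes 3 of 9 were higher and 0 lower (median 0.12). Over all genes 13.8% were higher and 23.6% lower, and without mixed barcodes 18.0% and 18.9%.

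Ikzf2 (Helios), a transcription factor known from regulatory and some activated T cells (chromosome 1, 69531214 to 69687245), went the other way. It had 48 UMIs in 21 of 70 cells in aGVHD, 130 UMIs in 19 of 24 cells in BMT and 45 UMIs in 19 of 61 cells in WT. The ratio of aGVHD over BMT was 0.159 (0.112 to 0.223) and 0.126 (0.0838 to 0.186) without mixed barcodes. In CD8-gated unmixed cells it was 0.0876 (0.0473 to 0.152), so the difference was present within that gate. The regulatory T cell list did not go the way of Ikzf2. Of its 4 measured members 3 were at least 1.5-fold higher in aGVHD and 1 lower (median log2 ratio 1.03). Without mixed barcodes 3 of 4 were higher and 1 lower (median 0.94). Over all genes 13.8% were higher and 23.6% lower, and without mixed barcodes 18.0% and 18.9%. After thinning to 1000 UMIs, Ikzf2 was seen in 8.57% of cells in aGVHD, 50% in BMT and 1.64% in WT. Tmprss6, a membrane protease known from liver iron control, had 0 UMIs in aGVHD and 30 in 9 cells in BMT. It was 23.2-fold lower against a floor of 3 UMIs, with an interval that reached down to 17.8-fold.

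**Figure D3:**
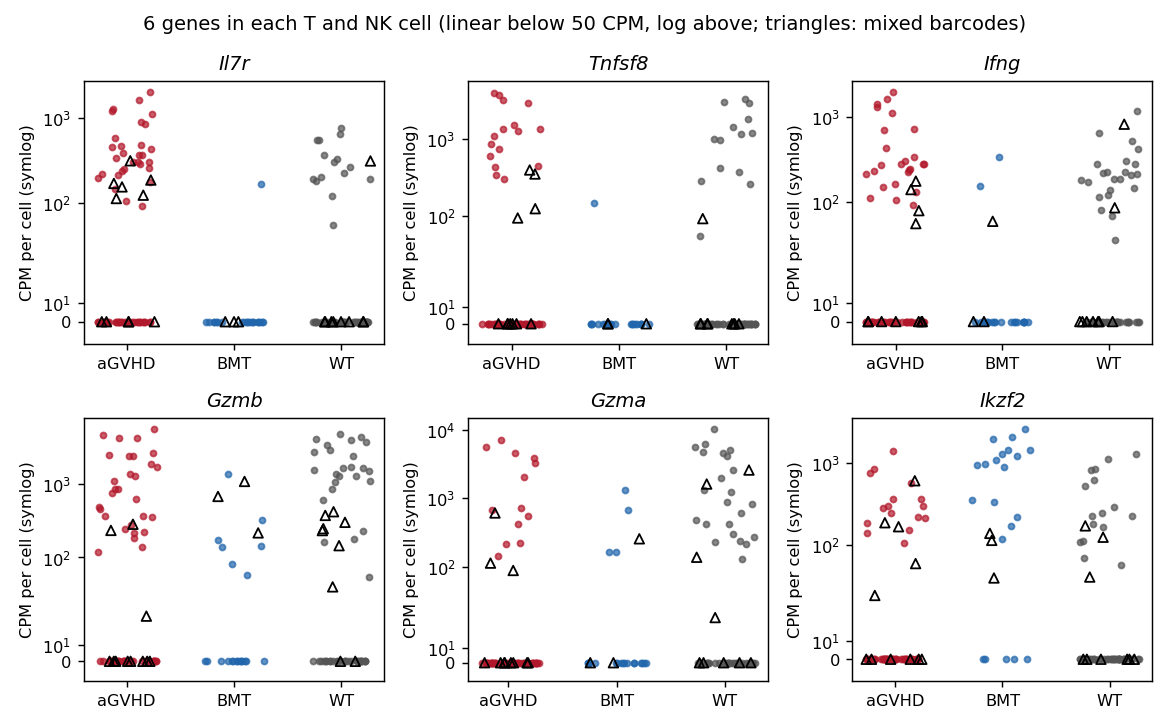
CPM per cell of 6 genes (symmetric log axis, linear below 50 CPM) in each T and NK cell by library; triangles are mixed barcodes. The genes were chosen after their values were seen. Il7r was seen in 36 of 70 aGVHD cells and 1 of 24 BMT cells, and Ikzf2 in 21 of 70 aGVHD cells and 19 of 24 BMT cells.

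The naming rule takes 10 genes on each side, ranked by the bound of the interval that lies nearest to 1. Of those higher in aGVHD, 3 of 10 (Tnfsf8, Il7r and Ifng) also passed without mixed barcodes. The other 7 were Mmp13, BC100530, Rarres2, Angptl7, Timp1, Pdk4 and Isg15, and they rested on few cells: 429 of 694 Rarres2 UMIs, 128 of 165 Isg15 UMIs and 102 of 103 BC100530 UMIs came from 1 cell each. Of those lower in aGVHD, 4 of 10 also passed without mixed barcodes (Tmprss6, Ikzf2, Fscn1 and Cbfa2t3). Fscn1 and Cbfa2t3 were carried by 1 BMT cell each, with 79 of 89 and 35 of 35 UMIs. Pi16, Hgf, Apod and Grem1 did not pass without mixed barcodes, nor did the Y-linked Eif2s3y and Ddx3y taken singly, which had 28 and 27 UMIs in BMT over all members. Without mixed barcodes the 10 highest also held Xist, Gzmb, the galectins Lgals3 and Lgals1, Rilpl2, Areg and Ccl4. Areg rested on 1 cell, with 36 of 49 UMIs.

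**Figure D4:**
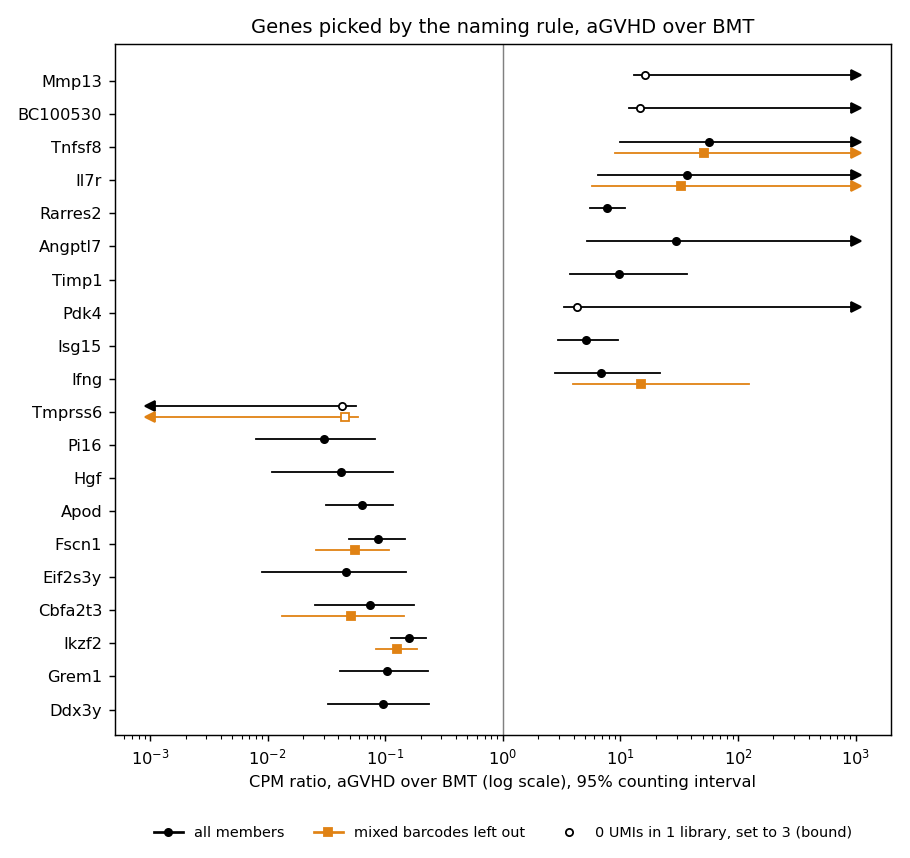
CPM ratio of aGVHD over BMT (log axis) with its 95% counting interval for the 20 genes picked by the naming rule, over all members (circles) and without mixed barcodes (squares); arrows mark intervals that run past the axis, open symbols a library at 0 UMIs. Genes with no square had under 30 UMIs left without mixed barcodes, and 7 of 20 genes have one.

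Gene lists were described by how many measured members stood at least 1.5-fold higher or lower, beside the same over all genes. Over all genes 13.8% were at least 1.5-fold higher and 23.6% lower in aGVHD than in BMT, with a median log2 ratio of -0.11. Without mixed barcodes 18.0% were higher and 18.9% lower. Of the T cell activation list, 6 of 9 were higher and 2 lower in aGVHD, with a median log2 ratio of 0.81, and 6 of 9 were higher and 3 lower without mixed barcodes, with a median of 1.31. Within it Tnfrsf4 (OX40, a costimulatory receptor) was 4.24-fold higher (2.70 to 7.0) and passed. Unmixed aGVHD cells held 83 Tnfrsf4 UMIs in 13 of 15 CD4-gated cells and 24 in 7 of 31 CD8-gated cells. In CD8-gated unmixed cells the Tnfrsf4 ratio was 2.83 (1.06 to 9.51). Cd69 (an early activation antigen) was 1.69-fold higher (1.10 to 2.68) and did not pass over all members. Tnfrsf9 (4-1BB, induced on activation) was at a ratio of 0.366 (0.262 to 0.511) and passed as lower. Of the glycolysis list, 6 of 10 were higher and 0 lower (median 0.77), with Eno1 at 2.56 (1.54 to 4.48) and Tpi1 at 3.30 (1.64 to 7.51), though none passed the size rule. Without mixed barcodes 6 of 9 were higher and 0 lower (median 1.0), and Eno1 passed at 3.19 (1.69 to 6.65). Of the adhesion and residency list, 6 of 10 were higher and 1 lower in both ways of counting, and the integrin chain Itgb7 passed at 7.53 (1.93 to 64.6). Of the inhibitory receptor list 1 of 6 was higher and 1 lower over all members, and 1 was higher and 3 lower without mixed barcodes. For the interferon gamma response list 2 of 23 were higher and 7 lower, with a median of -0.05, and without mixed barcodes 1 of 16 was higher and 2 lower, with a median of -0.09. The cell cycle list had 6 of 14 higher and 0 lower, with a median of 0.45, and 7 of 8 higher without mixed barcodes, with a median of 1.37.

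The comparison of BMT with WT sets T cells of irradiated mice given marrow against those of untreated mice. These T cells differ in sex, donor and strain as well as in treatment. BMT cells had less RNA of Gzma, Gzmb and most measured cell cycle genes, and more of Ikzf2, Tnfrsf9 and Pdcd1. Of 3564 genes, 231 passed the size rule as higher (6.48%) and 79 as lower (2.22%) in BMT. Without mixed barcodes 185 of 2347 passed as higher (7.88%) and 103 as lower (4.39%), with 130 and 57 genes passing both ways. A single cell held at least 50% of the higher library's UMIs for 18 of the 231 and 2 of the 79. Malat1 was 2.26-fold higher in BMT (2.19 to 2.33), with 30544 CPM in BMT cells against 13519 CPM in WT cells. Its part in these differences was not tested.

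Among genes lower in BMT, 8 of the 10 picked by the naming rule also passed without mixed barcodes: Tnfsf8, Gzma, Itgb7, Gzmb, Hist1h2ap, Rilpl2, Pkp3 and H2afz. Gzma (chromosome 13, 113093825 to 113100981) had 41 UMIs in 5 of 24 cells in BMT and 471 UMIs in 27 of 61 cells in WT, a ratio of 0.214 (0.152 to 0.295). Gzmb had a ratio of 0.275 (0.203 to 0.366) over all members and 0.0717 (0.0368 to 0.127) without mixed barcodes. In CD8-gated unmixed cells Gzmb had 12 UMIs in 7 of 16 cells in BMT and 403 UMIs in 21 of 30 cells in WT. Of the cytotoxic granule and death ligand list 0 of 9 were higher and 4 lower, of which 2 passed, with a median log2 ratio of -0.03. Without mixed barcodes 1 of 9 was higher and 4 lower, with a median of -0.26. Over all genes 26.2% were at least 1.5-fold higher and 16.3% lower, and without mixed barcodes 22.5% were higher and 23.3% lower. Gzmk in CD8-gated unmixed cells was at 0.676 (0.343 to 1.25), an interval that includes 1. Itgb7 had 2 UMIs in BMT and 56 in WT, at a ratio of 0.0878 (0.0104 to 0.332). The other 2 genes, Rgs5 and Mmp9, were carried by single WT barcodes, with 244 of 245 and 59 of 59 UMIs.

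Among genes higher in BMT, 6 of 10 also passed without mixed barcodes: Fscn1, Cacnb3, Tmprss6, Cbfa2t3, Ikzf2 and Tbc1d4. For 3 of them 1 BMT cell held nearly all BMT UMIs: 79 of 89 for Fscn1, 30 of 31 for Cacnb3 and 35 of 35 for Cbfa2t3. Ikzf2 was at a ratio of 7.10 (5.03 to 10.2) and Tbc1d4, a regulator of glucose transporter traffic, at 7.87 (3.77 to 17.9). Tnfrsf9 had 81 UMIs in BMT and 49 in WT, at 4.07 (2.82 to 5.92), and Pdcd1 (PD-1, an inhibitory receptor) had 54 UMIs in BMT and 45 in WT, at 2.95 (1.95 to 4.49). Both passed in both ways of counting. Of the T cell activation list 4 of 9 were higher and 4 lower in BMT (median log2 ratio 0.49). Without mixed barcodes 3 of 9 were higher and 5 lower (median -0.95). Of the inhibitory receptor list 2 of 7 were higher and 2 lower (median 0.10). Without mixed barcodes 2 of 6 were higher and 0 lower (median 0.14). Over all genes 26.2% were at least 1.5-fold higher and 16.3% lower, and without mixed barcodes 22.5% and 23.3%. Hgf, Pi16, Sfrp1 and Marcks did not pass without mixed barcodes.

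Cell cycle genes were lower in BMT. Of the 23 measured members of the list 0 were higher and 19 lower in BMT, with a median log2 ratio of -1.18, against 26.2% higher and 16.3% lower over all genes. Without mixed barcodes 14 of 15 were lower, with a median of -1.79, against 22.5% higher and 23.3% lower over all genes. Stmn1, a microtubule regulator of dividing cells, had 29 UMIs in BMT and 250 in WT, at 0.285 (0.187 to 0.420). Glycolysis genes were lower in 7 of 10 (median -0.77) and, without mixed barcodes, in 7 of 9 (median -1.02). Migration receptors were lower in 6 of 7 (median -1.05), and in 6 of 7 without mixed barcodes (median -0.95), including the exit receptor S1pr1 at 0.270 (0.112 to 0.560) and the chemokine receptor Ccr2 at 0.240 (0.0624 to 0.662).

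The interferon gamma response list changed with the choice of cells. Over all members 12 of 18 were higher in BMT than in WT, with a median log2 ratio of 1.24, against 26.2% of all genes higher. Without mixed barcodes 4 of 13 were higher and 2 lower, with a median of 0.03, against 22.5% of all genes higher and 23.3% lower. Cxcl9 (a chemokine induced by interferon gamma) had 1299 UMIs in 7 cells in aGVHD, 358 in BMT and 0 in WT over all members, and was under 30 UMIs in every pair without mixed barcodes.

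The comparison of aGVHD with WT sets transplanted mice with donor spleen cells against untreated mice, and in both most T cells carried Xist. Shared Xist does not make these cells alike in origin. The aGVHD T cells may come from spleen donors, marrow donors or recipients, and this was not tested. They may differ from the WT cells in donor and strain as well as in irradiation. None of these can be told apart from the group. Here 90 of 4380 genes passed as higher (2.05%) and 48 as lower (1.10%) in aGVHD. Without mixed barcodes 102 of 2963 passed as higher (3.44%) and 51 as lower (1.72%), with 46 and 25 genes passing both ways. A single cell held at least 50% of the higher library's UMIs for 14 of the 90 and 2 of the 48. This library pair shares 1 library with each comparison above, so agreement between the comparisons is no separate evidence.

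Of the 10 genes picked as higher in aGVHD, 2 also passed without mixed barcodes. Cd83, a surface protein of activated lymphocytes (chromosome 13, 43784775 to 43803132), had 30 UMIs in 6 cells in aGVHD and 2 UMIs in 1 cell in WT, at 15.9 (4.03 to 137). Pdcd1lg2 (PD-L2, a ligand of PD-1) had 29 UMIs in 19 cells in aGVHD and 3 UMIs in 3 cells in WT, at 10.2 (3.17 to 52.5). Cxcl9, BC100530, Rarres2, Adamts5, Mmp13, Isg15, Timp1 and Ghr did not. Outside the rule, and chosen after their values were seen, Il7r was at 3.25 (2.10 to 5.17) and Cd69 (chromosome 6, 129267325 to 129275436) at 2.80 (1.93 to 4.14), both passing in both ways of counting.

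Of the 10 genes picked as lower in aGVHD, 7 also passed without mixed barcodes: Gzma, Hmgn5, Stmn1, Gmnn, Pdia3, Dtl and Cks1b. Gzma had 165 UMIs in 16 cells in aGVHD and 471 UMIs in 27 cells in WT, at 0.371 (0.308 to 0.443). Rgs5, Mmp9 and Ttc28 did not pass without them. The cell cycle list had 0 of 26 measured members higher and 17 lower (median log2 ratio -0.68), against 15.5% higher and 12.5% lower over all genes, and 16 of 19 lower without mixed barcodes (median -1.01), against 14.7% higher and 12.2% lower. Gzmb was at 0.596 (0.511 to 0.694) and did not pass. For T cell activation genes 3 of 11 were higher and 1 lower (median 0.37), and without mixed barcodes 3 of 10 were higher and 2 lower (median 0.29).

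Cell cycle RNA was concentrated in a few cells. A cell was called cycling when the list made up at least 1% of its UMIs, a limit chosen after the values were seen. There were 5 such cells of 70 in aGVHD (3 of 59 without mixed barcodes), 0 of 24 in BMT, which allows up to 12.5%, and 10 of 61 in WT (8 of 52). All 10 in WT were in the CD8 gate, as were 3 of the 5 in aGVHD, and the cycling cells were deep, with median UMIs of 12733 in aGVHD and 18418 in WT. Within 0.8 to 1.2% lay 0 cells in aGVHD, 0 in BMT and 3 in WT. At 24 cells the BMT library cannot show a cycling share below its limit.

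**Figure D5:**
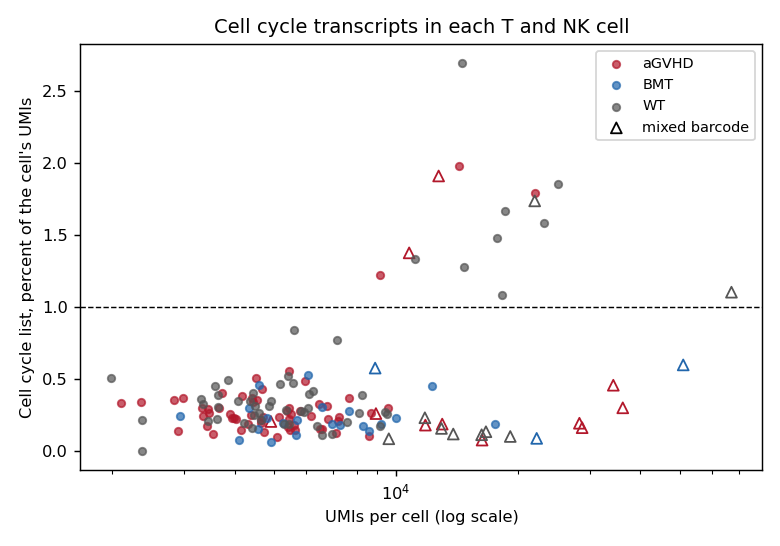
Percent of each cell's UMIs in the cell cycle list against its UMIs (log axis), by library; triangles are mixed barcodes and the dashed line is 1%. Above the line lie 5 of 70 aGVHD cells, 0 of 24 BMT cells and 10 of 61 WT cells, none of them with under 9123 UMIs.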

How the data were processed

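Per the file headers, the deposited matrices hold raw UMI counts from Cell Ranger 3.1.0, with empty droplets included; Cell Ranger, Seurat and the mm10 build are named in the submitters' processing notes. Members and gene lists were chosen with earlier results of these data known. From the counts, UMIs were summed over the members of each library and scaled to CPM. Ratios carry exact conditional binomial intervals, shares exact Clopper-Pearson intervals, all at 95%. The limit given beside a share of 0 is 3 counts of the total and bounds cells with a UMI, not cells expressing the gene. Genes with 0 UMIs were set to a floor of 3 UMIs per library. The naming rule took, per comparison, the 10 genes higher and 10 lower past the size rule by the interval bound nearest to 1, leaving out ribosomal, mitochondrial, haemoglobin, immunoglobulin and unnamed genes. Levels of free RNA were read from barcodes of at most 100 UMIs. Coordinates come from GENCODE M21 (GRCm38, the same assembly as mm10). Doublets were kept. 12 other settings were run, 1 of them (mixed barcodes left out) chosen after seeing the data, among them removal of likely doublets with Scrublet. The contrast was tested on simulated counts. Python 3.11.15, numpy 2.4.6, scipy 1.17.1, pandas 2.3.3 and scanpy 1.11.5 were used. The ratios of 1 gene among those counted are not reported here.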

Additional observations from a re-analysis of the deposited data

How the results depend on the processing

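No paired analysis was possible because each group has 1 library. 12 alternatives were run on the counts, list medians and 88 genes, of which 72 came from the naming rule applied with and without mixed barcodes. The share ratios were run only under the alternatives that change which cells are counted, and the CD8 shares under those and thinning. Of 2772 gene values, 120 had both libraries at or under 3 UMIs and got no fold. Of the other gene values 2288 were counted as unchanged, 261 no longer passed the size rule, 74 newly passed and 29 reversed. A value was counted as reversed when its ratio crossed 1 and it passed in the main or the other setting. Values that passed in neither setting were counted as unchanged whatever their direction. The share ratios moved by less than their counting intervals.

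Counts past the size rule depended on the UMI minimum. At 10 UMIs per gene 319 were lower in aGVHD over BMT, 410 higher in BMT over WT, and 152 higher and 85 lower in aGVHD over WT. At 100 UMIs they were 25 higher and 29 lower in aGVHD over BMT, 44 and 32 in BMT over WT, and 21 and 12 in aGVHD over WT. With cells thinned to 1000 UMIs they were 20 higher and 14 lower in aGVHD over BMT, 13 and 15 in BMT over WT, and 12 and 2 in aGVHD over WT, and the CD8 shares were 30.6% in aGVHD, 41.2% in BMT and 42.4% in WT. With the empty-droplet profile subtracted 154 were higher in aGVHD over WT. The share of UMIs assigned to free RNA was 16.8% in aGVHD, 0.393% in BMT and 0.403% in WT. It was set from neutrophil and haemoglobin UMIs over all members, mixed barcodes included. In aGVHD the neutrophil list had 2423 UMIs and the erythroid list 19277, but 85 and 317 without mixed barcodes. The 16.8% is thus not a level of free RNA alone, and the 154 genes rest on it. With cells holding RNA of other classes left out 29 were lower in aGVHD over WT.

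The cell cycle median log2 ratio for aGVHD over BMT, 0.45 over all members, was 0.79 without likely doublets, 1.32 without cells holding other classes' RNA and 1.37 without mixed barcodes. For BMT over WT, -1.18 over all members, it was -1.87 without likely doublets. For aGVHD over WT, -0.68 over all members, it was -1.31 without likely doublets, -1.01 without mixed barcodes, -0.93 under 5% mitochondrial UMIs, -0.45 with cells weighted equally and -0.47 thinned.

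The reversed ratios were as follows, and the cause was not tested. Without mixed barcodes Rarres2 was 0.750 and Isg15 0.630 in aGVHD over BMT, Hist1h1b 0.404 in BMT over WT, and Rarres2 0.955 and Isg15 0.321 in aGVHD over WT. Without likely doublets Isg15 was 0.859, Grem1 1.07 and Sfrp1 1.37 in aGVHD over BMT, Hist1h1b 0.340 in BMT over WT and Isg15 0.515 in aGVHD over WT, and the interferon gamma response median was -0.06 in BMT over WT. Without cells holding other classes' RNA Hist1h1b was 1.07 in aGVHD over BMT, Apod 0.0602 and Hist1h1b 0.479 in BMT over WT, and Mmp13 0.510 and Ghr 0.198 in aGVHD over WT. With cells weighted equally Grem1 was 0.812 in BMT over WT and Mmp9 1.37 in aGVHD over WT. Thinned, Mmp13 was 0.457, BC100530 and Timp1 0.571, Itgb7 0.686 and Bend4 1.03 in aGVHD over BMT, Itgb7 1.27 and Ccr2 1.09 in BMT over WT, and Isg15 0.871, Cd4 0.871, Top2a 1.39 and Hist1h1b 3.49 in aGVHD over WT. Thinning left few UMIs per gene, so values of genes with under 30 UMIs are set by the draw.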

Other observations

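Within the CD8 gate, without mixed barcodes, several genes were compared that were chosen after their values were seen. Bend4 had 11 UMIs in 31 cells in aGVHD, 41 in 16 cells in BMT and 14 in 30 cells in WT, and Sft2d2 had 5 UMIs in aGVHD, 37 in BMT and 8 in WT. Tox, a factor of persistently stimulated T cells, had 27 UMIs in aGVHD, 43 in BMT and 30 in WT, with a ratio of 0.371 for aGVHD over BMT (0.220 to 0.613) and 3.25 for BMT over WT (1.99 to 5.37). Rgs1, a regulator of chemokine signalling, had 320 UMIs in aGVHD, 93 in BMT and 228 in WT, at 2.03 for aGVHD over BMT (1.61 to 2.59). Ccl4, a chemokine of activated CD8 cells, had 108 UMIs in 18 cells in aGVHD, 10 in 4 cells in BMT and 23 in 8 cells in WT. Its ratio was 6.37 for aGVHD over BMT (3.34 to 13.7) and 6.28 for aGVHD over WT (3.98 to 10.3). A single aGVHD cell held 45 of the 108 UMIs. Empty droplets held 171 CPM of Ccl4 in aGVHD, 51.2 in BMT and 35.7 in WT. Igfbp4 had 0 UMIs in aGVHD, 0 in BMT and 24 in 3 cells in WT.

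The likely doublets removed by Scrublet included 8 members in aGVHD, 1 in BMT and 14 in WT, of which 8 in aGVHD, 1 in BMT and 8 in WT were mixed barcodes.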
